A study of Mus musculus with 9 samples.

Results

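Isolated PPARγ peaks are ChIP-sequencing peaks of the nuclear receptor PPARγ that stand far from any other peak in interscapular brown adipose tissue (iBAT). They were chosen by position alone, as peaks on numbered chromosomes with more than 100000 bases to the previous and to the next peak, without the first and last peak of each chromosome. Of 66066 peaks, 1155 met this rule. Binding was measured by ChIP-sequencing in iBAT of male, chow-fed C57BL/6J mice of 10 weeks old, an inbred strain, kept under a 12h:12h light:dark cycle in mild cold. There were 8 time points at intervals of 3 h (Zeitgeber time ZT0 through ZT21), and lights went on at ZT0. At each time point the tissue of 8 mice was pooled according to the labels, chromatin was incubated with 8 µg of a PPARγ antibody, and 1 library was sequenced, so that differences between mice or preparations could not be estimated. For the same time points the description of the animals gives 4 mice. The pools contained whole tissue, in which brown adipocytes lie beside other cell types, so fewer cells with a bound site and less binding per cell cannot be told apart.

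PPARγ is the master regulator of fat cell formation and maintains the lipid genes of mature white and brown adipocytes. It binds DNA as a heterodimer with the retinoid X receptor, at an element called DR1, in which the hexamer AGGTCA is repeated with 1 base between the copies. In adipocytes its sites commonly lie in groups around active genes and beside those of C/EBP and EBF factors.

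The following sites show the DR1-like element, which is the sequence that the receptor recognizes, in 8 isolated peaks. The first is a full match, the next 2 are in the strongest peaks with an element, the following 3 are in peaks with a large oscillation described below, and the last 2 are in peaks among the 4 farthest from any neighbour. Sequences are from GRCm38 (mm10), 5′ to 3′ on the strand given, with the 13 bases of the element in capitals.

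chr17:16051818-16051830, plus strand, nearest start site Rgmb: tttctatcAGGTCAGAGGTCAatcagagc

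chr5:72003991-72004003, minus strand, intron of Gabrb1: cttctagaAGGTAAAAGGTCAaggcaggc

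chr4:89012890-89012902, plus strand, intron of Gm34568: caacaaccAGGTCAGAGGTACcttggttt

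chr10:29672280-29672292, minus strand, nearest start site Rspo3: attgctgtATGTCATAGGTCTttcagatc

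chr4:110741365-110741377, minus strand, intron of Agbl4: aaaaatgtAGGACACAGTTCAgtttcttt

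chr13:72889914-72889926, minus strand, nearest start site D730050B12Rik: gggagcccAGGGCAATGGTCAtaggggta

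chr5:60319049-60319061, plus strand, nearest start site 4933402J10Rik: gcatatcaAAGCCAGAGGTCAtgatttca

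chr3:45384945-45384957, minus strand, intron of Pcdh10: gtaaatcaAGGTCAAATCTCAagagaaat

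A DR1-like element, with at most 2 mismatches to the 12 fixed bases on either strand, was present in the central 300 bases of 135 isolated peaks (11.7%). The share was 9.68% of all peaks and 3.59% of windows of the same length placed 5000 bases to either side of the isolated peaks. Within classes of mean count the isolated peaks were not above the others throughout, with 16.0% against 18.9% under 50 counts, 14.1% against 12.96% at 50 to 100, 11.7% against 10.1% at 100 to 200, 5.78% against 8.56% at 200 to 500 and 6.06% against 7.22% at 500 and more. With at most 1 mismatch, 31 isolated peaks (2.68%) had an element, against 2.05% of all peaks and 0.346% of the flanking windows. When whole peaks were searched with at most 2 mismatches, the order turned, with 16.1% of isolated peaks against 23.6% of all peaks. Only 2 isolated peaks and 167 of all peaks had a full match, and the one on chromosome 17 is shown above. In 73 of the 135 isolated peaks (54.1%) the element lay within 50 bases of the peak centre, against 44.4% of all peaks with an element. The site of EBF factors, TCCC and GGGA with 2 bases between them, was present in 2.86% of isolated peaks, 2.16% of all peaks and 0.476% of flanking windows. A sequence of TTGC and CAA with 2 bases between them was present in 3.72% of isolated peaks, 2.99% of all peaks and 3.03% of flanks. Its spacing is not that of the C/EBP site, so these shares do not describe C/EBP sites. The E-box CACGTG, which clock factors bind, was present in 4.16% of isolated peaks, 5.55% of all peaks and 2.81% of flanks. A match is a description of the sequence and does not show which factor was bound.

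The isolated peaks had few reads. Their median normalized count, which is the count divided by the library's effective size (its total times the TMM factor) and averaged over the 8 libraries, was 101.5 (quartiles 60.8 and 201.1), against 224.2 for all peaks. Of the isolated peaks, 573 (49.6%) had a mean below 100 and 66 (5.71%) had a mean of at least 500, against 21.0% and 26.5% of all peaks. They were also narrower, with a median width of 557 bases against 813, and per 1000 bases of width they held a median of 176 normalized counts against 270. All isolated peaks together took 0.699% to 0.797% of the counted reads in each library. These comparisons with other peaks are descriptions without a test, because peaks of the same libraries are not replicates.

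The low count was the end of a gradient. The median of the mean count was 293 in peaks with a neighbour within 1 kb, 248 at 1 to 5 kb, 204 at 5 to 20 kb, 174 at 20 to 50 kb and 141 at 50 to 100 kb. It was 73.0 in the 104 isolated peaks with more than 500 kb to either neighbour.

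**Figure D1:**
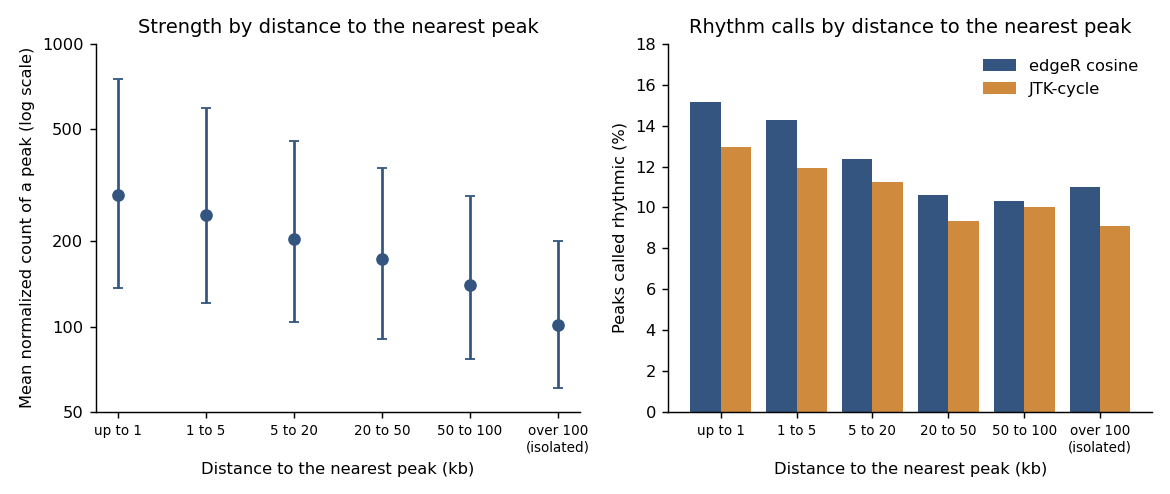
Left, mean normalized count of a peak (log axis; points are medians and bars run from the lower to the upper quartile over peaks) by distance to the nearest peak. Right, percentage of peaks called oscillating by the edgeR cosine and by JTK-cycle in the same classes. The median count falls at each step, from 293 to 101.5, while the share called is highest in the class with a neighbour within 1 kb.

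By their centre, 706 isolated peaks (61.1%) were intergenic, 378 (32.7%) intronic and 71 (6.15%) exonic, against 40.8%, 50.3% and 8.87% of all peaks. The median distance to the nearest start site of a curated RefSeq transcript was 97722 bases against 18504, and 110 isolated peaks lay over 500 kb from any. The intronic ones lay in long genes, with a median gene length of 354.6 kb against 98.4 kb for all intronic peaks. The median GC content was 43.4% against 47.3%. On single chromosomes, between 25 and 110 peaks were isolated, which is 0.993% (chromosome 11) to 2.71% (chromosome 16) of the chromosome's peaks.

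Start sites were not absent from the set. The centre of 175 isolated peaks (15.2%) lay within 2500 bases of a start site, against 20.2% of all peaks. These were the stronger ones, with a median count of 247.6 against 89.3 in the other 980. The sequence was rich in CpG, with a GC content over 50% and an observed to expected CpG ratio over 0.6, in 113 of the 175 (64.6%), and 6 of them (3.43%) had a DR1-like element, against 129 (13.2%) of the isolated peaks away from start sites.

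The gene lists differed in how many of their peaks were isolated. None of the 340 peaks whose nearest start site belonged to a list of 51 lipid handling genes was isolated, nor any of the 442 peaks at 39 brown adipocyte and adipogenic genes. Among 634 peaks at genes of cell adhesion and the synapse (21 symbol prefixes, such as cadherins, protocadherins and glutamate receptors), 76 (12.0%) were isolated, and among 126 peaks at olfactory and vomeronasal receptor genes, 16 (12.7%). Of 591 peaks at developmental transcription factors, 10 (1.69%) were isolated. Over all peaks the share was 1.75%. The rule used the distance between peaks, and these counts were not tested. The nearest gene names a position only, and expression was not analysed here. The largest number at 1 gene was 5, at Naaladl2, followed by 4 each at Adgrl3, Ncam2, Nr2f1 and Nrxn3. Macrod2, a very long gene, had 5 isolated peaks within its body.

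The strongest isolated peak lay at chr2:98666753-98667291, 1199365 bases downstream of the nearest start site (Lrrc4c), and had normalized counts of 48173, 48263, 50758, 40494, 46638, 39890, 53589 and 42476 from ZT0 to ZT21. Its sequence was soft-masked as repeat over 98.9% of its length and matched itself at a shift of 251 bases with 89.6% identity. The closest match to DR1 over the whole peak had 5 mismatches. The input was not analysed, so whether these reads reflect PPARγ binding was not tested. This peak alone took between 0.124% and 0.174% of the reads, as the share of all isolated peaks without it was 0.575% to 0.646% per library. The libraries did not follow a 24-h cosine here (edgeR, adjusted p = 0.624).

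Of the other isolated peaks, none had a mean over 1577. That value belonged to a peak over the start site of Clock, which encodes a core transcription factor of the circadian clock (chr5:76303450-76305906, 162595 bases from the nearest other peak). Its normalized counts from ZT0 to ZT21 were 1687, 1673, 1414, 1427, 1546, 1509, 1642 and 1715. The 2 lowest libraries were ZT6 and ZT9 and the highest ZT21, with a fitted ratio of peak to trough of 1.19 that did not pass the test (edgeR cosine, adjusted p = 0.148). It was the only isolated one of 124 peaks at 20 clock genes.

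The other 5 of the 6 strongest peaks at start sites varied less over the day. At Tdrd3, whose product binds methylated arginine, the counts ran from 1149 (ZT18) to 1321 (ZT0), and the fitted ratio of peak to trough was 1.09 (edgeR, adjusted p = 0.575). Zbtb18, a transcriptional repressor, ranged from 954.0 to 1133, Fam204a from 877.4 to 1039, Adss, an enzyme of purine synthesis, from 841.1 to 1010, and Ibtk, an inhibitor of Bruton's tyrosine kinase, from 784.0 to 860.6. None of these passed the test, with adjusted p values (edgeR) between 0.542 and 0.916.

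Strong isolated peaks away from start sites varied more. The peak 211558 bases upstream of Rbfox1, a splicing factor of neurons and muscle, had counts of 1632, 1458, 1576, 1561, 1339, 1173, 1311 and 1403 from ZT0 to ZT21 and fell to its lowest at ZT15 (edgeR cosine, adjusted p = 0.0755, from 0.0277 without ZT3 to 0.333 without ZT15). The peak 115174 bases upstream of Mir5127 had counts of 1148, 1166, 1722, 1534, 1703, 1445, 1231 and 1307. It was high from ZT6 to ZT12 and was called (fitted ratio 1.44, adjusted p = 0.0304), but not when the library of ZT0, ZT12, ZT15 or ZT18 was left out (adjusted p from 0.0610 to 0.103), nor by JTK-cycle (adjusted P = 0.467). Peaks in an intron of Pard3b (1115 to 1716; adjusted p from 0.0102 without ZT3 to 0.454 without ZT15), upstream of Auts2 (1094 to 1480) and upstream of Camk1d (1082 to 1428) were not called on all libraries.

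Whether binding at isolated sites oscillated was asked with a 24-h cosine fitted by edgeR's quasi-likelihood test, adjusted over all 66066 peaks. At an adjusted p under 0.05, 127 isolated peaks (11.0%) were called, where the background over all peaks was 13.4%. JTK-cycle, a rank method, was rewritten here after the one used in the study and need not give the same calls. It called 105 (9.09%) at an adjusted P under 0.05, where the background was 11.6%. Both shares were below the background, 63 isolated peaks were called by both methods and 169 by either. JTK-cycle corrects only within a peak, and over all peaks the lowest q of an isolated peak was 0.0968, so that none passed 0.05. By the cosine, 370 isolated peaks (32.0%) had an unadjusted p under 0.05, against 31.3% of all peaks. The cosine calls depended on single libraries, and the share of all peaks called moved as well. Without ZT18, 43 isolated peaks (3.72%) were called against 4.64% of all peaks, without ZT15 54 (4.68%) against 5.65%, without ZT6 56 (4.85%) against 6.48%, without ZT9 72 (6.23%) against 8.49%, without ZT12 77 (6.67%) against 8.62%, and without ZT3 207 (17.9%) against 16.96%. JTK-cycle called 178 (15.4%) without ZT3, against 16.4% of all peaks.

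The share called followed strength in a different way from that of other peaks. By the cosine, 5.92% of isolated peaks with a mean count under 50 were called against 3.38% of others, 11.4% against 7.75% at 50 to 100, 12.0% against 11.5% at 100 to 200, 12.9% against 13.2% at 200 to 500, and 10.6% (7 of 66) against 20.3% at 500 and more. Near start sites 5 of 175 isolated peaks (2.86%) were called and elsewhere 122 of 980 (12.4%), and the corresponding shares of all peaks were 7.67% and 14.8%. The median fitted ratio of peak to trough was 1.36 in isolated peaks and 1.27 in all peaks. By class of mean count it was 1.45 against 1.36 in others under 50 and 1.47 against 1.36 at 50 to 100. It was 1.34 against 1.32 at 100 to 200, 1.26 against 1.25 at 200 to 500 and 1.179 against 1.205 at 500 and more. The median coefficient of variation over the 8 libraries was 18.6% in isolated peaks and 14.2% in all peaks. Counting error alone would give medians of 9.93% and 6.68%.

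A peak time in the light phase, from ZT0 to before ZT12, was found for 77 isolated peaks (6.67%; background 7.58%) and one in the dark phase for 50 (4.33%; background 5.8%). Of the called isolated peaks, 60.6% thus peaked in the light phase, against 56.7% of all called peaks. With division by library totals in place of TMM, 50 of 119 (42.0%) peaked in the light phase, against 34.9% of all called peaks, so the larger phase changed with the scaling. It also changed when the library of ZT15, ZT6 or ZT18 was left out, with 42.6%, 46.4% and 46.5% in the light phase. The interval from ZT3 to ZT6 held 45 of the 127 (35.4%), against 26.6% of all called peaks, and ZT6 to ZT9 held 10 (7.87%) against 17.6%. Those with a peak time in the dark had a lower GC content, with a median of 40.5% against 43.7%, and 24 of the 50 (48.0%) were under 40%, against 18 of the 77 (23.4%) with a peak time in the light. The same contrast was present over all called peaks, with medians of 44.9% and 48.1% and shares under 40% GC of 20.6% and 5.07%.

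**Figure D2:**
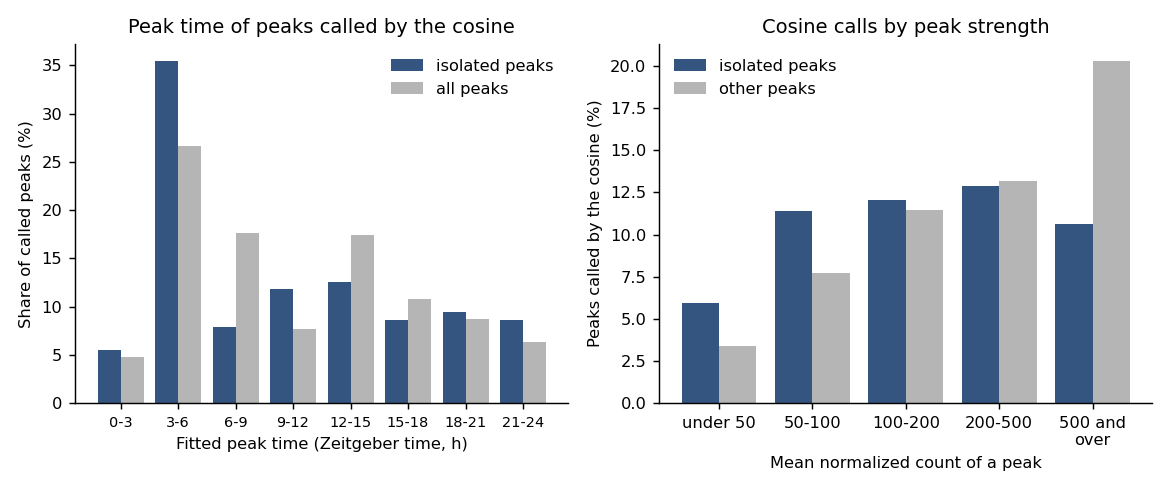
Left, fitted peak time in bins of 3 h of peaks called by the edgeR cosine, as a percentage of the 127 isolated peaks and of all called peaks. Right, percentage of peaks called by the cosine in classes of mean normalized count, for isolated and other peaks. The bin from 3 to 6 h holds 35.4% of the called isolated peaks, and in the class of 500 and over 10.6% of isolated peaks were called against 20.3% of others.

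The isolated peaks as a set differed between libraries. Relative to each peak's own mean over the 8 libraries, their median level in the libraries from ZT0 to ZT21 was 106.0%, 96.9%, 105.7%, 96.8%, 97.3%, 90.8%, 97.6% and 101.6%. Over all peaks the same medians lay between 98.96% and 99.63%. The libraries of ZT0 and ZT6 were high, with the library of ZT3 between them low, and ZT15 was the lowest. ZT0 was the highest library for 282 isolated peaks (24.4%; 12.5% of all peaks), ZT6 for 269 (23.3%; 17.4%), and ZT15 was the lowest for 307 (26.6%; 19.7%).

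At ZT0 and ZT15 this pattern followed the distance to the nearest peak. At ZT0 the median level rose from 97.3% in peaks with a neighbour within 1 kb to 102.7% at 50 to 100 kb, 104.2% at 100 to 200 kb and 108.6% over 200 kb. At ZT15 it fell over the same classes from 100.3% to 93.9%, 91.1% and 89.5%. At ZT6 it was 99.4%, 102.6%, 106.2% and 104.3% in these classes, and so did not rise at the last step. Within classes of count, isolated peaks with a mean of 500 and more were at 104.3% at ZT0 and 92.8% at ZT15 and those under 100 at 106.9% and 88.4%, while other peaks of 500 and more were at 99.4% and 95.7% and other peaks under 100 at 99.2% and 101.3%. A lower level at ZT15 was thus also present in strong peaks that were not isolated. In isolated peaks under 40% GC the levels were 105.3% and 93.4%, and in those over 50% GC 104.1% and 91.2%. Other peaks were at 98.0% and 104.9% under 40% GC and at 100.4% and 97.2% over 50% GC. In the 175 isolated peaks near start sites the levels at ZT0 and ZT15 were 99.8% and 96.1%. The order of ZT3 and ZT6 was turned round in these peaks, at 104.8% and 98.6%, and in isolated peaks over 50% GC, at 102.6% and 98.8%. Other peaks over 50% GC were at 102.8% and 97.3%. With 1 library per time point, a difference between libraries and a difference between times of day cannot be told apart. When the TMM factors were taken from the isolated peaks alone, 125 were called, 112 of them among the 127, and 54.4% peaked in the light phase.

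**Figure D3:**
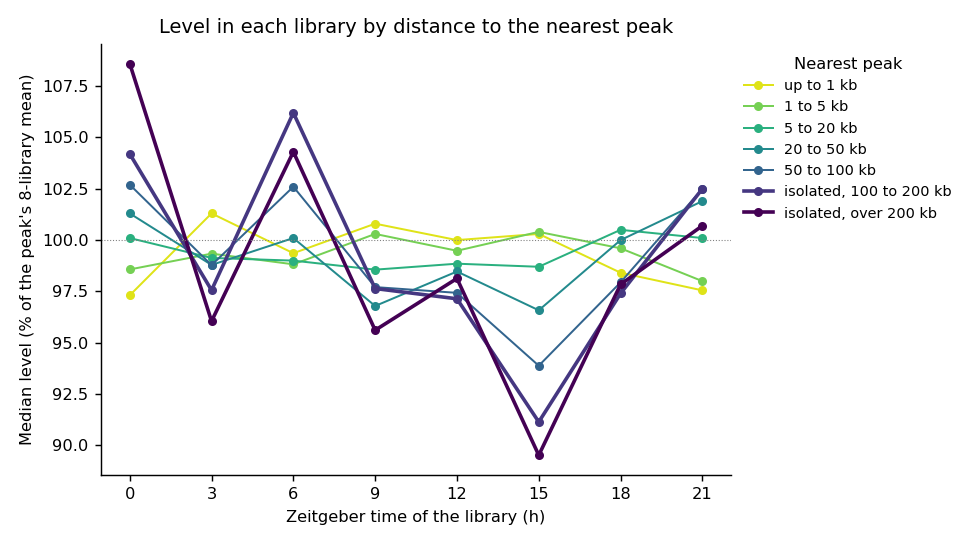
Median level of a peak in each library, as a percentage of its mean over the 8 libraries, by the Zeitgeber time of the library. Each line is a class of distance to the nearest peak, and the thick lines are isolated peaks. The lines of isolated peaks are high at ZT0 and ZT6 and lowest at ZT15 (91.1% and 89.5%), and the lines of peaks with a neighbour within 5 kb stay between 97.3% and 101.3%.

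The largest oscillation among isolated peaks with a mean of at least 100 was at chr10:29671827-29672633, 136363 bases upstream of Rspo3, which encodes a secreted amplifier of Wnt signalling. This peak, whose DR1-like element is shown above, had normalized counts of 48.3, 42.1, 65.1, 138.6, 192.0, 207.5, 110.3 and 63.7 from ZT0 to ZT21. They rose without a break from ZT3 to ZT15 and fell again to ZT21. The 95% Wilson intervals of the lowest and the highest library, which cover counting error only, were 31.4 to 56.5 and 181.5 to 237.2. The fitted ratio of peak to trough was 5.16 with a peak time of ZT13.3 (edgeR cosine, adjusted p = 7.92e-05), and without any single library the adjusted p was at most 0.00138.

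Of the 8 called isolated peaks with the largest fitted ratio among those with a mean of at least 100, 5 had a peak time between ZT13.3 and ZT15.5. These times were not typical of the called isolated peaks. The intervals ZT12 to ZT15 and ZT15 to ZT18 held 12.6% and 8.66% of them, against 17.5% and 10.8% of all called peaks. Their largest interval was ZT3 to ZT6, with 35.4%. At chr10:46697303-46698570, 890232 bases from the nearest start site (D030045P18Rik), the counts were 389.1, 275.5, 352.5, 584.0, 745.3, 777.6, 528.6 and 370.8. At chr14:74428043-74428934, near 4933402J15Rik, they were 232.0, 165.5, 242.7, 388.0, 467.1, 487.7, 310.1 and 274.2. Both were lowest at ZT3 and highest at ZT15, with fitted ratios of 2.56 and 2.53 (edgeR cosine, adjusted p = 0.000766 and 0.00126). In an intron of Agbl4, an enzyme that removes glutamate from proteins, the counts were 121.1, 69.8, 130.1, 218.8, 316.2, 210.4, 221.6 and 160.2, with a fitted ratio of 2.99 (adjusted p = 0.00416). At chr3:111102165-111103243, near Gm6602, they were 149.9, 106.2, 128.2, 150.5, 232.0, 280.2, 265.3 and 149.9, with a fitted ratio of 2.48 (adjusted p = 0.00197). The sequence of these 5 peaks had between 33.7% and 37.6% GC. The 7779 peaks under 40% GC that were not isolated had a median level of 92.0% at ZT3, their lowest, and of 104.9% at ZT15, their highest. With a trend over GC content in each library as an offset, an alternative chosen after seeing the data, all 5 were still called (edgeR adjusted p from 0.000186 to 0.00878). JTK-cycle gave an adjusted P of 0.00595 for the peaks near D030045P18Rik, 4933402J15Rik and Gm6602 and of 0.026 for the one near Rspo3, and it did not call the one in Agbl4 (0.0826).

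The other 3 had a fitted peak time in the light phase. For the peak near Cartpt this time was ZT9.41, though its highest library was ZT12. At chr12:5668348-5669387, near 2810032G03Rik, the counts were 211.5, 484.0, 510.7, 288.0, 219.7, 149.3, 155.0 and 256.8. This peak had a DR1-like element with 1 mismatch within the central window that was searched, at a distance from the centre not given here. The highest libraries were ZT3 and ZT6 and the lowest ZT15 and ZT18, with a fitted ratio of 3.12 and a peak time of ZT4.65 (edgeR cosine, adjusted p = 0.00207). The peak at chr13:72889638-72890323, near D730050B12Rik, had counts of 149.9, 99.5, 170.9, 158.4, 102.7, 71.8, 55.2 and 78.1 (fitted ratio 2.53, adjusted p = 0.0177, and 0.0658 to 0.110 without ZT6, ZT15 or ZT18). The peak near Cartpt, which encodes an appetite peptide, had counts of 47.2, 80.4, 143.7, 145.5, 175.5, 76.6, 53.1 and 97.6 (fitted ratio 2.65, adjusted p = 0.0285, and 0.0621 to 0.0908 without ZT0, ZT6, ZT9, ZT12 or ZT18). JTK-cycle called the first of these 3 (adjusted P = 0.00595) and not the peaks near D730050B12Rik (0.0826) and Cartpt (0.467).

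**Figure D4:**
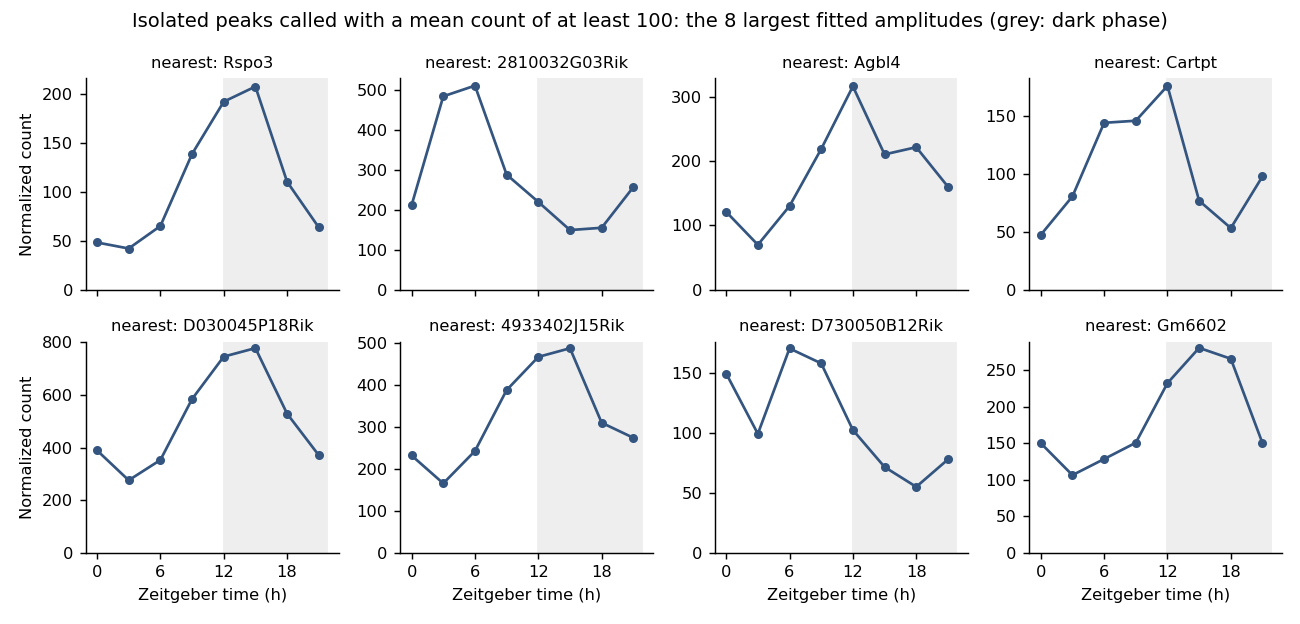
Normalized count (y axis from 0) against Zeitgeber time for the 8 isolated peaks with the largest fitted cosine amplitude among those called with a mean of at least 100, each named by its nearest start site, with 1 library per point and the dark phase in grey. The peaks near Rspo3, D030045P18Rik, 4933402J15Rik and Gm6602 are lowest at ZT3 and highest at ZT15.

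Of the peaks in the gene lists, the one 1335174 bases downstream of Pcdh9, a protocadherin of neurons, had counts of 359.3, 321.4, 431.1, 593.9, 688.8, 644.7, 617.1 and 409.8, lowest at ZT3 and highest at ZT12 (fitted ratio 2.14, edgeR adjusted p = 0.000723, 33.1% GC). Of the 76 isolated peaks at genes of adhesion and the synapse, 12 were called by the cosine (15.8%), where the background over all peaks was 13.4%. JTK-cycle called 6 of the 76, a share below its background of 11.6%. Of the 16 at chemosensory receptors, the cosine called 3 and JTK-cycle 4, shares above these backgrounds but of few peaks. The strongest of these 16 was near Olfr688 (479.6 to 646.8, highest at ZT0), followed by those near Olfr876 (288.0 to 372.5) and Olfr726 (252.4 to 370.8), and the cosine called none of these 3. JTK-cycle called only the one near Olfr876 among them (adjusted P = 0.026). Among developmental transcription factors, the strongest were near Sall1 (99.9 to 211.7), Six2 (122.2 to 185.9) and Pax7 (119.1 to 221.9), regulators of kidney, kidney progenitors and muscle stem cells, and none of these was called.

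The peak farthest from any other, chr2:88921088-88921532, lay in a cluster of olfactory receptor genes, 9003 bases from Olfr1211 and 1658620 bases from its nearer neighbour. Its counts were 59.5, 62.2, 81.6, 67.3, 55.4, 36.8, 39.5 and 54.4, highest at ZT6 and lowest at ZT15, and the intervals of these 2 libraries were 65.9 to 101.0 and 26.8 to 50.6. It was called (edgeR cosine, adjusted p = 0.0426), but not with library totals only (adjusted p = 0.0635), with DESeq2 (adjusted p = 0.115), or without ZT0, ZT6, ZT9, ZT12, ZT15 or ZT18 (adjusted p from 0.0556 to 0.181). JTK-cycle called it as well (adjusted P = 0.026). The peak in an intron of Pcdh10, a protocadherin, 1484957 bases from its nearer neighbour, had counts of 66.7, 49.7, 73.8, 44.5, 41.1, 27.2, 34.3 and 49.3 and was called as narrowly (adjusted p = 0.0458, 0.0565 with library totals only, and 0.0553 to 0.207 when any 1 library but ZT3 was left out), though not by JTK-cycle (adjusted P = 0.0826). The peaks near Rprl1 (38.0 to 58.3) and 4933402J10Rik (90.2 to 195.1), with 1567166 and 1526400 bases to the nearer neighbour, were not called on all libraries, the latter having an adjusted p from 0.0406 without ZT3 to 0.509 without ZT0. In all 4 the highest library was ZT0 or ZT6. Over all isolated peaks ZT0 was the highest library in 24.4% and ZT6 in 23.3%, against 12.5% and 17.4% of all peaks.

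Called peaks within 2500 bases of a start site were few, and they are named after their values were seen. The peak 297 bases downstream of the start of Hace1, a ubiquitin ligase, had counts of 253.6, 261.1, 158.3, 189.1, 229.9, 314.1, 291.4 and 328.6, lowest at ZT6 and highest at ZT21 (fitted ratio 1.79, edgeR adjusted p = 0.0211), and was not called by JTK-cycle (adjusted P = 0.212). At Krt23, a keratin, the counts were highest at ZT6 (252.4) and lowest at ZT15 (118.3), and a DR1-like element with 1 mismatch lay 131 bases from the centre. At Adam3, a gene of sperm, they were highest at ZT12 (222.8) and lowest at ZT6 (133.0). The remaining ones, at Gm35234 and Crct1, had means of 48.6 and 50.3.

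Of the 135 isolated peaks with a DR1-like element, 16 (11.9%) were called by the cosine, and of the other 1020, 111 (10.9%), while the share among all peaks with an element was 13.9%. The peaks with an element were weaker, with a median count of 78.6 against 105.3. The peak with the full match near Rgmb had counts of 248.4, 358.7, 370.9, 321.7, 306.9, 336.4, 351.7 and 364.6, all close together but for ZT0 (edgeR cosine, adjusted p = 0.992). Over 50% of the sequence was soft-masked in 78 isolated peaks (6.75%), against 2.68% of all peaks, and 8 of them (10.3%) were called, against 10.1% of all such peaks. Another place in the genome, with at least 150 bases matching the central 300 and at least 90% identity, was found for 43 isolated peaks (3.72%). The share was 3.97% of all peaks. Of the 43, 5 (11.6%) were called, against 13.3% of all peaks with such a place. In such peaks reads may be shared between copies. The search passed over very frequent short sequences, so copies of abundant repeats could be missed. The strongest isolated peak is not among the 43, though its sequence matched itself at a shift of 251 bases with 89.6% identity.

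Just inside the limit of 100000 bases were the peaks near Mup5, with 100016 bases to its neighbour and a mean of 102.9, and near Crp, with 100019 bases and 191.4. Just outside were 2 peaks near 4930474G06Rik, 99985 bases apart, with means of 53.0 and 66.1.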

How the data were processed

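The deposited file holds raw counts, whole numbers of reads per peak and library that the authors did not normalize. Per the paper's methods and the submitters' processing notes, reads were mapped to mm10 with BWA 0.7.17, peaks were called with MACS2 2.1.2, kept when significant in at least 6 libraries, and counted with HTSeq 1.99.2. The handling of duplicate reads is not given in the sources used here. Between 29572225 and 34264812 reads per library were counted, so a peak of 100 counts has a counting error near 10%. The ZT12 input was not analysed here.

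TMM factors (0.959 to 1.04) and the cosine test were computed with edgeR 4.0.16 in R 4.3.3, with 5 residual degrees of freedom, so that p-values rest on how far the 8 libraries depart from a cosine. JTK-cycle was rewritten in Python 3.11.15 (exact null, periods of 21 and 24 h, Bonferroni over 15 combinations), with a rule for ties chosen after seeing the data. On 5000 simulated peaks, 200 of them oscillating with a relative amplitude of 0.5 (larger than in most isolated peaks) at a dispersion of 0.01, edgeR recovered 200 with 11 false calls and JTK-cycle 162 with 87. Start sites were those of 45756 curated RefSeq transcripts of GRCm38.p6, and other copies were sought with minimap2 2.31. Coordinates are as the authors' row names give them.

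The isolated peaks, gene lists and rules were chosen with earlier results of these data known. Named peaks are the 8 with the highest mean, the 8 called with the largest amplitude and a mean of at least 100, the 4 with the largest gap, the 6 strongest near start sites, up to 3 per gene list and those at the limit, of which 1 in a gene list is not reported here. Alternatives were other scalings (library totals, DESeq2 1.42.0 size factors, upper quartile), filters, thresholds, DESeq2's test, a 24-h period, each library left out, limits of 50000 and 200000 bases, other windows and mismatches, and repeats left out. Added after seeing the data were TMM factors from isolated peaks alone, a GC trend per library, peaks with copies left out, and the light-phase share without each library.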

Additional observations from a re-analysis of the deposited data

How the results depend on the processing

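The count of 127 isolated peaks called by the cosine stayed within 1.5 times under every scaling tried, filterByExpr and DESeq2's test. It was 70 when peaks with a mean of at least 100 alone were tested (582 isolated peaks), 27 at an adjusted p under 0.01, 311 of 2942 with a limit of 50000 bases and 41 of 426 with 200000 bases. Leaving out a library gave 43 (ZT18) to 207 (ZT3). The count of 105 by JTK-cycle became 53, 41, 284 and 34 under the same 4 changes, and 99 to 178 with a library left out. The limits of 50000 and 200000 bases gave median counts of 123.2 and 90.0 and median widths of 584 and 538.5 bases. The share near a start site was 18.3% with 50000 bases and 19.4% within 10000 bases. A DR1-like element was present in 2.68% with at most 1 mismatch and in 16.1% over whole peaks, the latter against 23.6% of all peaks. The share of called peaks with a light-phase peak time was 42.0% with library totals only and 51.2% with 200000 bases, and 42.6% to 72.5% with a library left out. The median ratio of peak to trough was 1.34 with TMM factors from isolated peaks alone. Where the cause is not in the construction of the alternative, the cause was not tested. Of 12 named peaks that were called, 7 were called under every alternative of the cosine fit and by DESeq2 where tested, 1 of which (Agbl4) JTK-cycle did not call (adjusted P = 0.0826), and 5 lost the call under at least 1. No paired analysis was possible because each time point has 1 library. Depth limits peaks under 100 counts most, and with 1 pool per time point the error between pools is unknown.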
